A study of Mus musculus with 8 samples.

Results

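The axon guidance ligands and receptors were described in the corpus callosum of PLP-150Q mice given LAQ or purified water. They comprised every row of the count table whose symbol begins with Sema, Plxn, Epha, Ephb, Efna, Efnb, Robo or Unc5, together with Dcc, Slit1, Slit2, Slit3, Nrp1, Nrp2, Ntn1, Ntn3 and Ntn4, without antisense and pseudogene symbols. This gave 70 of the 41128 genes in the table, of which 34 encode ligands and 34 encode receptors. The remaining 2, Unc50 and Unc5cl, share only the first letters of their symbols with the Unc5 family and are not netrin receptors. The LAQ group had 4 libraries (replicates 5 to 8) from mice given LAQ at 5 mg/kg from 3 months of age for 2 months, and the control group had 4 libraries (replicates 1 to 4) from mice given purified water over the same time. The name LAQ is taken here to mean laquinimod, an immunomodulatory drug given by mouth. All mice carried the PLP-150Q transgene, which expresses a mutant huntingtin fragment in oligodendrocytes, so both groups model Huntington's disease in that cell type only. By the labels tissue was taken at 5 months of age, and no label states that every library is its own mouse. Where mice were shared, a p-value reflects spread between samples that may be technical.

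Axon guidance molecules steer growing axons by attracting or repelling their tips. Semaphorins bind plexins, with neuropilins as co-receptors of the secreted class, ephrins on one cell bind Eph receptor kinases on the next, Slits bind Robo receptors, and netrins bind Dcc and the Unc5 receptors. Callosal axons need several of these systems to cross the midline during development. In the adult, some members remain on neurons, others mark vessels (Plxnd1, Robo4, Unc5b), and others are made by oligodendrocytes, such as Sema4d and Efnb3, which limit axon growth on myelin.

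The LAQ libraries held 9634156 to 12021429 counted reads and the control libraries 8790749 to 11972197. The 10 myelinating oligodendrocyte markers examined, which define this white matter tissue, were all present, with a summed level of 12898 to 16916 CPM (counts divided by the scaled size of each library) in LAQ and 12186 to 13965 CPM in control. Markers of neurons of neighbouring grey matter were present as well. LAQ 7 stood apart from the other LAQ libraries. Its chi-square per degree of freedom against them was 15.02 to 23.9, beside 7.44 to 8.43 among LAQ 5, 6 and 8 and 4.07 to 5.76 among the control libraries. The 10 cortical excitatory markers summed to 952 CPM in LAQ 7 and to 1656 to 1825 CPM in LAQ 5, 6 and 8, against 1464 to 1787 CPM in control. The striatal markers, 5 of 6 found in the table, summed to 2246 CPM in LAQ 7 and 351 CPM in LAQ 5, with 912 and 1157 CPM in LAQ 6 and 8, against 918 to 1204 CPM in control. In bulk tissue, fewer cells of a type and less RNA per cell cannot be told apart.

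Levels were compared between genes as CPM per kilobase of annotated exon. Ephrin-B3 (Efnb3), a membrane ligand that repels axons at the midline of the spinal cord, had the highest level of the family members, with 62.4 ± 2.96 in LAQ and 54.7 ± 5.23 in control (SD, n = 4 each). Per length, it made up 61.6% of the ephrin signal in LAQ and 57.9% in control. Ephb6, an Eph receptor without kinase activity, followed with 35.2 ± 4.37 in LAQ and 39.8 ± 3.36 in control. The netrin receptor gene Unc5a (33.2 ± 6.32 in LAQ and 34.3 ± 2.10 in control) and Sema6b, a transmembrane semaphorin that signals through class A plexins (30.1 ± 2.05 in LAQ and 31.4 ± 2.16 in control), came next. Within these SDs, Unc5a and Sema6b were not separated from each other, nor Unc5a from Ephb6 in LAQ. Unc5a made up 67.5% of the netrin, Dcc and Unc5 signal per length in LAQ and 66.1% in control. At the low end, Efna4, Epha2 and Unc5cl lay below the expression filter, with at most 1.73 CPM in any library, and were not tested, which left 67 members.

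**Figure D1:**
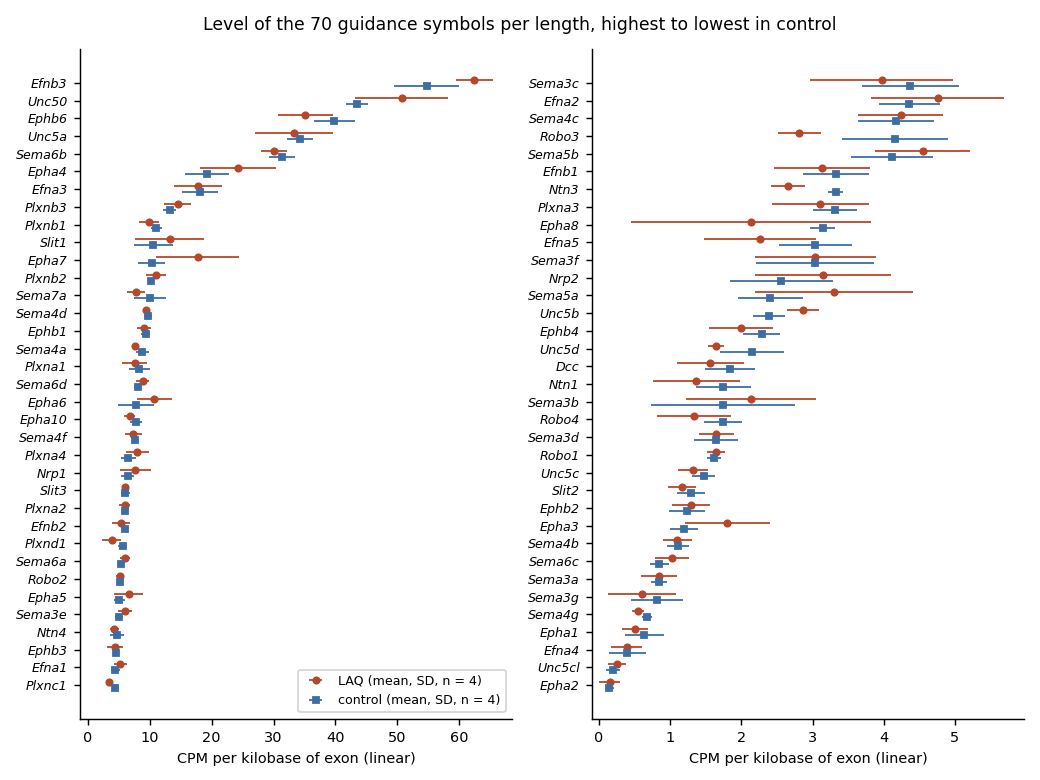
Level of the 70 symbols as CPM per kilobase of exon (x axis, linear, a different range in each panel), as the mean and SD of 4 LAQ libraries (circles) and 4 control libraries (squares), ordered by the control mean. Efnb3 lies at the top with 62.4 in LAQ and 54.7 in control, and Epha2 at the bottom.

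LAQ was then compared with control over all genes, and the members were read from that fit. No member passed edgeR's quasi-likelihood test with Benjamini-Hochberg adjustment over all genes (0 of 67 at an adjusted p under 0.05). Over all genes the test called 0 of 15771, a background of 0%, and the smallest adjusted p was 0.136. At an unadjusted edgeR p under 0.05 there were 10 members, which is 14.9% of those tested beside 11.1% of all genes. Of these, 5 were higher in LAQ (4.77% of all genes were) and 5 were lower (6.33%). The smallest adjusted p of a member was 0.192, for Robo3. DESeq2 called 1 member, Robo3, which was lower in LAQ, beside 0.845% of all genes called and 0.669% called lower, and limma voom called 0. The 4 LAQ values lay entirely below the 4 control values for 2 members, Plxnc1 and Ntn3, and entirely above them for 0. Of all genes, 3.61% lay entirely below and 2.78% entirely above. In either direction that is 2.99% of the tested members, beside 6.39% of all genes. Of the tested members, 28 had a positive and 39 a negative log2 fold change (49.7% of all genes were positive), with a median of -0.02, and the median over all genes was -0.0012.

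**Figure D2:**
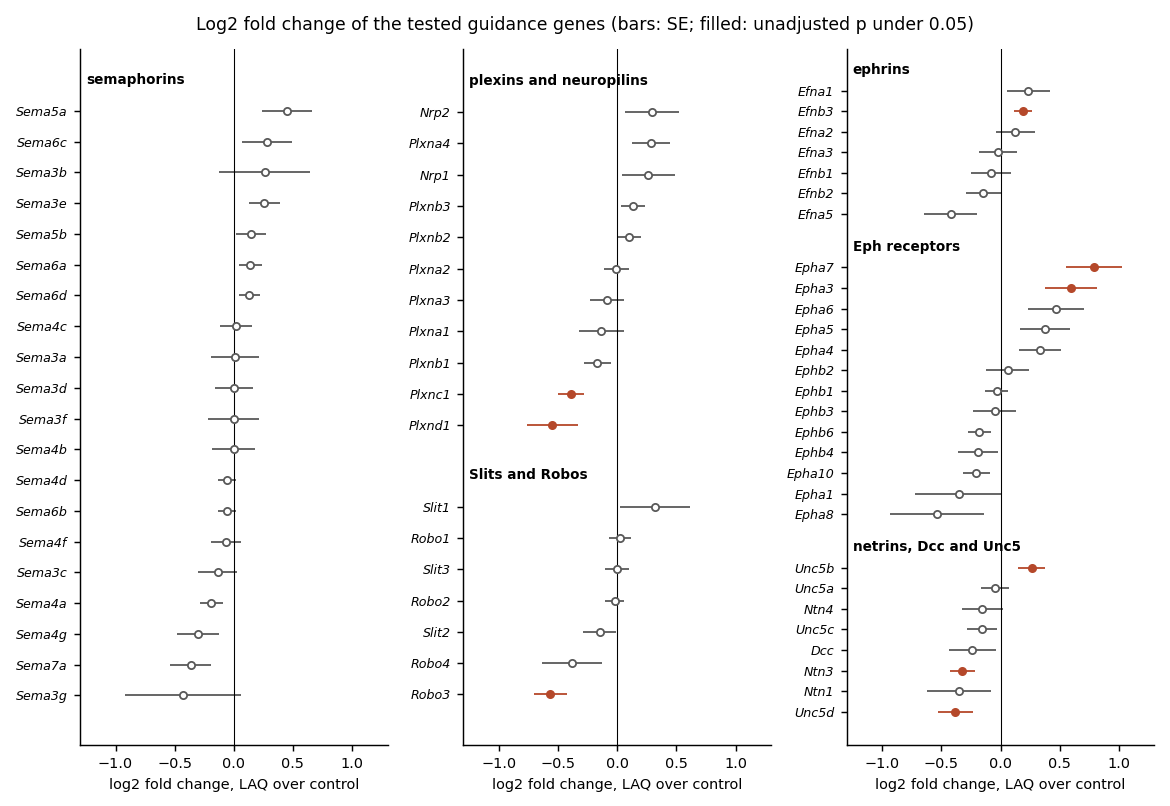
Log2 fold change of LAQ over control (x axis) for the 66 tested family members, grouped by family, as the edgeR estimate with its SE. Filled points mark an unadjusted p under 0.05, such as Epha7 at 0.79 and Robo3 at -0.57, and no point passed after adjustment.

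The 20 semaphorins divided evenly, with 10 positive and 10 negative log2 fold changes and none at an unadjusted edgeR p under 0.05. Sema5a, a transmembrane semaphorin that inhibits axon growth and is made by oligodendrocyte lineage cells in the optic nerve, had the smallest p of the family. It stood at 84.0, 74.1, 40.4 and 48.1 CPM in LAQ 5 to 8, against 40.9, 40.0, 41.2 and 57.7 CPM in control 1 to 4. LAQ 5 and 6 lay above every control library, and LAQ 7 and 8 lay within the control range. On the log2 scale the difference was 0.45 ± 0.21 (SE; edgeR adjusted p = 0.453), or 0.27 without LAQ 5. Sema7a, a membrane-anchored semaphorin that binds Plxnc1, averaged 25.8 ± 4.70 CPM in LAQ and 33.2 ± 8.35 CPM in control, which is -0.36 ± 0.17 on the log2 scale (SE; edgeR adjusted p = 0.457). That value was -0.18 without control 1, the library of highest Sema7a. Sema4a, a semaphorin also known from immune cells, averaged 41.5 ± 3.01 CPM in LAQ and 47.4 ± 5.65 CPM in control, a log2 fold change of -0.19 ± 0.10 (SE; edgeR adjusted p = 0.483). The 2 semaphorins with the most reads were Sema6b and Sema6d. Sema6b (119 ± 8.12 CPM in LAQ and 124 ± 8.58 CPM in control) differed by less than either SD. Sema6d (93.3 ± 10.8 CPM in LAQ and 85.2 ± 5.58 CPM in control) differed by less than the LAQ SD but more than the control SD. Sema4d, the oligodendrocyte semaphorin, stood at -0.06 ± 0.08 (SE), and the 7 secreted class 3 genes had a median log2 fold change of 0.00018, or -0.16 without LAQ 7.

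Among the 9 plexins and 2 neuropilins, Plxnc1 and Plxnd1 had an unadjusted edgeR p under 0.05, both lower in LAQ. Plxnc1, the receptor of Sema7a, stood at 29.9, 30.7, 26.5 and 24.6 CPM in LAQ 5 to 8, against 33.3, 41.0, 40.6 and 32.1 CPM in control 1 to 4. The groups did not overlap. On the log2 scale the difference was -0.39 ± 0.11 (SE), a 0.762-fold ratio, and it stayed between -0.45 and -0.33 when any 1 library was left out. The edgeR adjusted p was 0.259. Plxnc1 lies on chromosome 10 from 94790866 to 94944835 in GRCm38 (GENCODE M21), on the minus strand. The 250 bases before its start, from RefSeq on GRCm38.p6 at chr10:94944846-94945095 on the minus strand, are shown because Plxnc1 was the member with no overlap and the smaller p. Capitals mark the GC box (GGGCGG on either strand), found 4 times; the TATA box (TATAAA) and the CCAAT box (CCAAT), searched on both strands, were not in this window. Of 32851 promoter windows of the same length, 32.7% held a GC box, 12.4% a TATA box and 33.8% a CCAAT box.
Plxnc1: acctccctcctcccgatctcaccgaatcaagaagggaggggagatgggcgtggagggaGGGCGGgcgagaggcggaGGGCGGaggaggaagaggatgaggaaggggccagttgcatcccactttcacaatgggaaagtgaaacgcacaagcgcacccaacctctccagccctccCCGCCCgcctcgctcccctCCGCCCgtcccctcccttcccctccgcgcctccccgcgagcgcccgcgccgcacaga

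Plxnd1, the endothelial receptor of Sema3e on chromosome 6 (115954811 to 115995005, minus strand), stood at 17.7, 26.1, 44.0 and 24.7 CPM in LAQ 5 to 8, against 39.1, 42.3, 35.4 and 48.2 CPM in control 1 to 4. LAQ 5, 6 and 8 lay below every control library, and LAQ 7 lay among the control libraries. The log2 fold change was -0.55 ± 0.22 (SE; edgeR adjusted p = 0.393), and -0.85 with an adjusted p of 0.0194 without LAQ 7, in a range of 0.0194 to 0.635 over the alternatives. Its ligand Sema3e averaged 55.6 ± 10.5 CPM in LAQ and 46.5 ± 5.98 CPM in control, a log2 fold change of 0.26 ± 0.13 (SE; edgeR adjusted p = 0.492). All 5 endothelial markers had a negative log2 fold change too, and none was at 0. They summed to 140, 97.5, 205 and 181 CPM in LAQ 5 to 8, against 153 to 209 CPM in control. LAQ 8 thus lay within the control range of that sum, unlike its Plxnd1 value, and LAQ 6 was lowest. Among the LAQ libraries, the striatal marker sum was lowest in LAQ 5 and highest in LAQ 7, as Plxnd1 was. The part of endothelial or striatal RNA in the result for Plxnd1 was not tested. Plxna4, a receptor of class 3 semaphorins, averaged 113 ± 26.2 CPM in LAQ and 92.4 ± 17.2 CPM in control, and Plxna2 averaged 102 ± 15.97 CPM in LAQ and 103 ± 5.87 CPM in control, and the groups overlapped for both. Nrp1 stood at 90.5, 79.4, 39.1 and 92.2 CPM in LAQ 5 to 8, against 49.1, 67.3, 74.5 and 60.3 CPM in control 1 to 4. LAQ 7 was the lowest library and the other LAQ libraries lay above all control libraries. The log2 fold change of Nrp1 was 0.26 ± 0.22 (SE), or 0.48 without LAQ 7 (edgeR adjusted p = 0.0534), and that of Nrp2 was 0.30 ± 0.23 (SE), or 0.46 without LAQ 7.

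**Figure D3:**
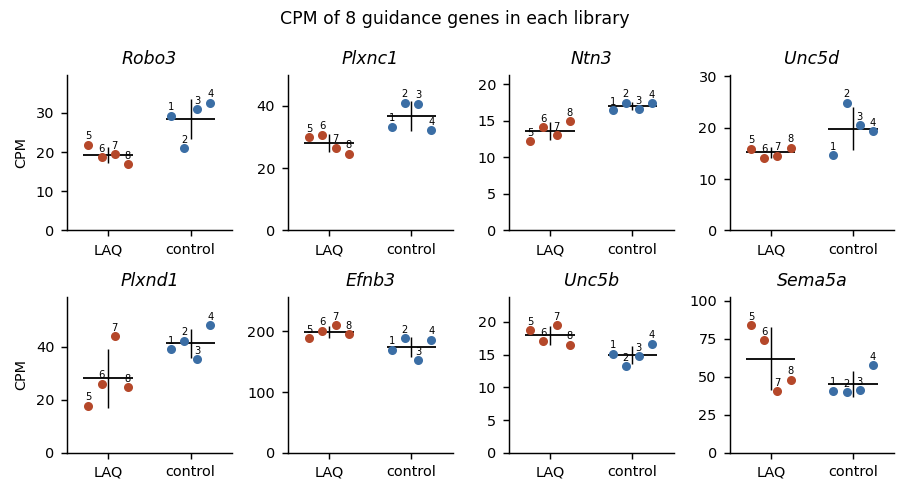
CPM (y axis, linear from 0, a different range in each panel) of 8 guidance genes in the 4 LAQ and 4 control libraries, with the replicate number beside each point and the mean and SD as lines. The groups are separate for Plxnc1 and Ntn3, and LAQ 7 (44.0 CPM) lies among the control points for Plxnd1.

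Of the 7 tested ephrins, 1 had an unadjusted edgeR p under 0.05. Efnb3 (chromosome 11, 69554092 to 69560205, minus strand) stood at 188, 201, 210.4 and 195 CPM in LAQ 5 to 8, against 169.7, 189, 153 and 186 CPM in control 1 to 4. Its 3 highest libraries in LAQ lay above all control libraries, and LAQ 5 lay just below control 2. The difference was 0.19 ± 0.08 (log2, SE; edgeR adjusted p = 0.409). Each of the 10 myelinating oligodendrocyte markers had a positive log2 fold change (median 0.17), none was at 0, and the part of oligodendrocyte RNA in the Efnb3 value was not tested. Ephrin-A5 (Efna5), a ligand of EphA receptors that sets topographic maps, averaged 9.11 ± 3.19 CPM in LAQ and 12.2 ± 2.07 CPM in control, a log2 fold change of -0.42 ± 0.22 (SE; edgeR adjusted p = 0.505). LAQ 5, 6 and 8 were its lowest libraries and LAQ 7 lay within the control range, and the value was -0.67 without LAQ 7. Efna1 averaged 9.62 ± 1.83 CPM in LAQ and 8.13 ± 1.36 CPM in control, and Efna3 43.4 ± 9.36 CPM in LAQ and 44.1 ± 7.06 CPM in control. Efnb2, the arterial ephrin, stood at 29.1, 36.0, 50.6 and 31.8 CPM in LAQ 5 to 8, against 38.4, 42.3, 41.0 and 42.0 CPM in control 1 to 4. LAQ 7 was the highest library and the other LAQ libraries were the lowest. Its log2 fold change was -0.15 ± 0.15 (SE), or -0.34 without LAQ 7 (edgeR adjusted p = 0.0779).

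The 3 largest positive log2 fold changes of the tested members were those of the Eph receptor genes Epha7, Epha3 and Epha6. Epha7, a receptor for ephrin-As that sorts axons and cortical cells during development, stood at 243, 219, 102 and 138 CPM in LAQ 5 to 8, against 82.4, 85.8, 127 and 112 CPM in control 1 to 4. LAQ 5, 6 and 8 lay above all control libraries, and LAQ 7 lay within the control range. Its log2 fold change was 0.79 ± 0.24 (SE), a 1.73-fold ratio, and its edgeR adjusted p was 0.278. Epha7 lies on chromosome 4 from 28813131 to 28967499 in GRCm38 (GENCODE M21), on the plus strand. The 250 bases before the first of its 2 RefSeq starts (GRCm38.p6, chr4:28812881-28813130, plus strand) are shown because this gene had the largest positive log2 fold change among the members. Capitals mark the CCAAT box (1 match) and the GC box (1 match), and no TATA box was in this window. The share of G and C was 69.2%, beside 68.8% in the Plxnc1 window and a median of 52.4% over all promoter windows.
Epha7: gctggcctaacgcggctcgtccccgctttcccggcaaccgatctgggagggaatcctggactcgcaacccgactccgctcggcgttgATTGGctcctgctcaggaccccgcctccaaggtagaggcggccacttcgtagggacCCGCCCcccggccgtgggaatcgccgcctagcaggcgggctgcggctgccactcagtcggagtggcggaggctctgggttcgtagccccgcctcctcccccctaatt

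Epha3, another ephrin-A receptor on chromosome 16 (63543534 to 63864175, minus strand), stood at 22.6, 15.6, 9.97 and 14.6 CPM in LAQ 5 to 8, against 8.22, 10.1, 12.5 and 10.6 CPM in control 1 to 4, a log2 fold change of 0.60 ± 0.22 (SE; edgeR adjusted p = 0.363). Here too LAQ 7 was the LAQ library within the control range. Epha6 stood at 68.0, 68.1, 37.4 and 54.4 CPM in LAQ 5 to 8, against 31.4, 29.4, 62.7 and 41.8 CPM in control 1 to 4 (log2 fold change 0.46 ± 0.24, SE; edgeR adjusted p = 0.484). Epha4, which binds both ephrin classes, stood at 244, 219, 129 and 189 CPM in LAQ 5 to 8, against 128, 148, 195 and 150.1 CPM in control 1 to 4 (0.33 ± 0.18, SE; edgeR adjusted p = 0.504). For both, the groups overlapped through control 3 as well as LAQ 7. Epha5 averaged 110.2 ± 38.1 CPM in LAQ and 85.1 ± 14.9 CPM in control (0.37 ± 0.21, SE). In all 5 of these EphA genes, LAQ 5 and LAQ 6 were the 2 highest of the 8 libraries. The other tested EphA genes had negative values, and Epha8 ran the other way between libraries. It stood at 3.33, 6.66, 21.5 and 8.84 CPM in LAQ 5 to 8, against 15.1, 15.4, 15.2 and 13.6 CPM in control 1 to 4, so that LAQ 7 was the highest and LAQ 5 the lowest of all libraries. The 5 EphB genes had a median log2 fold change of -0.05, or -0.12 without LAQ 7. Ephb6, the one with most reads, averaged 133 ± 16.5 CPM in LAQ and 150.3 ± 12.7 CPM in control (-0.18 ± 0.10, SE; edgeR adjusted p = 0.505).

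**Figure D4:**
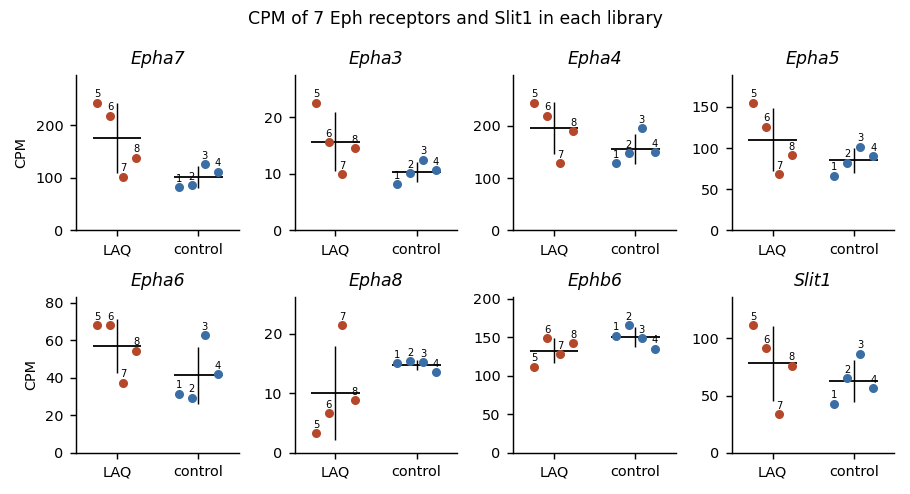
CPM (y axis, linear from 0, a different range in each panel) of 7 Eph receptor genes and Slit1 in the 4 LAQ and 4 control libraries, with replicate numbers, means and SDs. LAQ 5 and 6 are the 2 highest libraries for Epha3, Epha4, Epha5, Epha6, Epha7 and Slit1, and LAQ 5 is the lowest for Epha8 at 3.33 CPM.

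Markers of neighbouring grey matter also differed between these libraries. The hippocampal and dorsal midline markers had 6 of 6 positive log2 fold changes, none at 0, with sums of 765, 637, 521 and 556 CPM in LAQ 5 to 8, against 381, 392, 541 and 503 CPM in control 1 to 4. LAQ 5 and 6 were thus the 2 highest libraries of that list as well as of the 5 EphA genes. The order of the LAQ libraries in Epha8 was that of the striatal marker sum, lowest in LAQ 5 and highest in LAQ 7. Other marker lists differed too. Of the thalamic and habenular markers, 5 of 6 tested were negative (median -0.41), with sums of 173 to 306 CPM in LAQ and 270 to 394 CPM in control. All 5 ependymal markers were positive, with sums of 35.2 to 48.4 CPM in LAQ and 20.5 to 31.0 CPM in control. The choroid plexus sum was 1273 to 3607 CPM in LAQ and 384 to 2469 CPM in control. The part of these tissue differences in the Eph values, or in those of any other member, was not tested.

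Of the Slits and Robos, Robo3 had the smallest p among all tested members. Robo3 is a divergent Robo receptor that lets commissural axons cross the midline. It stood at 21.9, 18.6, 19.5 and 16.9 CPM in LAQ 5 to 8, against 29.2, 21.1, 31.0 and 32.6 CPM in control 1 to 4. Control 1, 3 and 4 lay well above all LAQ libraries, and control 2 lay just below LAQ 5. Its log2 fold change was -0.57 ± 0.14 (SE), a 0.675-fold ratio, and its edgeR adjusted p was 0.192. DESeq2 gave an adjusted p of 0.0393, and the adjusted p ranged from 0.0393 to 0.463 over the alternatives. Robo3 lies on chromosome 9 from 37415669 to 37433246 on the minus strand (GRCm38, GENCODE M21). Robo4, the endothelial Robo, ends 553 bases away on the plus strand, so that their 3′ ends face each other. Robo4 averaged 7.08 ± 2.76 CPM in LAQ and 9.22 ± 1.44 CPM in control, a log2 fold change of -0.38 ± 0.25 (SE; edgeR adjusted p = 0.609), -0.17 without LAQ 6, in which Robo4 was lowest, and -0.64 without LAQ 7. Slit1, a secreted repellent, averaged 78.3 ± 33.0 CPM in LAQ and 62.7 ± 18.3 CPM in control and followed the EphA genes in having LAQ 5 and 6 highest. Its log2 fold change was 0.32 ± 0.30 (SE), or 0.10 without LAQ 5 and 0.58 without LAQ 7. Robo2, the receptor with the most reads of this family, averaged 87.6 ± 9.09 CPM in LAQ and 88.9 ± 4.08 CPM in control. Robo1, Slit2 and Slit3 stood at 0.02 ± 0.09, -0.15 ± 0.14 and -0.01 ± 0.10 (log2 fold change ± SE), and Slit2 at -0.04 without LAQ 7.

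Among the netrins, Dcc and Unc5 receptors, 7 of 8 had a negative log2 fold change, with a median of -0.20. Without LAQ 7 there were 6 negative and 2 positive values, since Unc5a, near 0 with all libraries, stood at 0.078. Ntn3, a secreted netrin on chromosome 17 (24203848 to 24209531, minus strand), stood at 12.2, 14.1, 13.0 and 14.97 CPM in LAQ 5 to 8, against 16.4, 17.5, 16.6 and 17.4 CPM in control 1 to 4. The groups did not overlap, and the log2 fold change was -0.32 ± 0.11 (SE; edgeR adjusted p = 0.321). The annotated exons of Ntn3 share 89 bases with Tbc1d24 on the same strand and 139 bases with BC028777 on the opposite one. Tbc1d24 had 5760 reads over the 8 libraries and Ntn3 had 1271, so the count of Ntn3 is uncertain. Unc5d, a netrin receptor that also binds Flrt proteins, stood at 15.9, 14.1, 14.5 and 16.1 CPM in LAQ 5 to 8, against 14.6, 24.8, 20.5 and 19.3 CPM in control 1 to 4. Control 1 lay among the LAQ libraries, and the log2 fold change was -0.38 ± 0.15 (SE; edgeR adjusted p = 0.384), or -0.25 without control 2. Unc5b, the vascular member, was the one with a positive value over all 8 libraries. It stood at 18.7, 17.004, 19.5 and 16.5 CPM in LAQ 5 to 8, against 15.1, 13.3, 14.8 and 16.6 CPM in control 1 to 4 (0.26 ± 0.11, SE; edgeR adjusted p = 0.429), with LAQ 8 and control 4 overlapping. Unc5a averaged 139 ± 26.3 CPM in LAQ and 143 ± 8.77 CPM in control, and Unc5c 25.2 ± 4.07 CPM in LAQ and 28.1 ± 3.20 CPM in control. Dcc stood at -0.24 ± 0.20 and Ntn1 at -0.35 ± 0.27 (log2 fold change ± SE), or -0.46 and -0.71 without LAQ 7. Outside the families, Unc50 averaged 80.1 ± 11.8 CPM in LAQ and 68.6 ± 2.81 CPM in control (0.22 ± 0.10, SE; edgeR adjusted p = 0.437).

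The SD of log2 CPM was larger in LAQ than in control for 51 of the 67 tested members, or 76.1%, beside 63.7% of all genes. LAQ 5 and 6 were the 2 highest libraries for 12 members, or 17.9% of those tested beside 7.83% of all genes, and the 2 lowest for 5 (Dcc, Efna5, Epha8, Ntn1 and Sema4g), or 7.46% beside 8.02%. The summed level of the EphA genes was 796, 704, 420 and 541 CPM in LAQ 5 to 8, against 389, 420, 578 and 484 CPM in control 1 to 4. The EphB sum stood at 234 to 269 CPM in LAQ and 262 to 297 CPM in control.

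**Figure D5:**
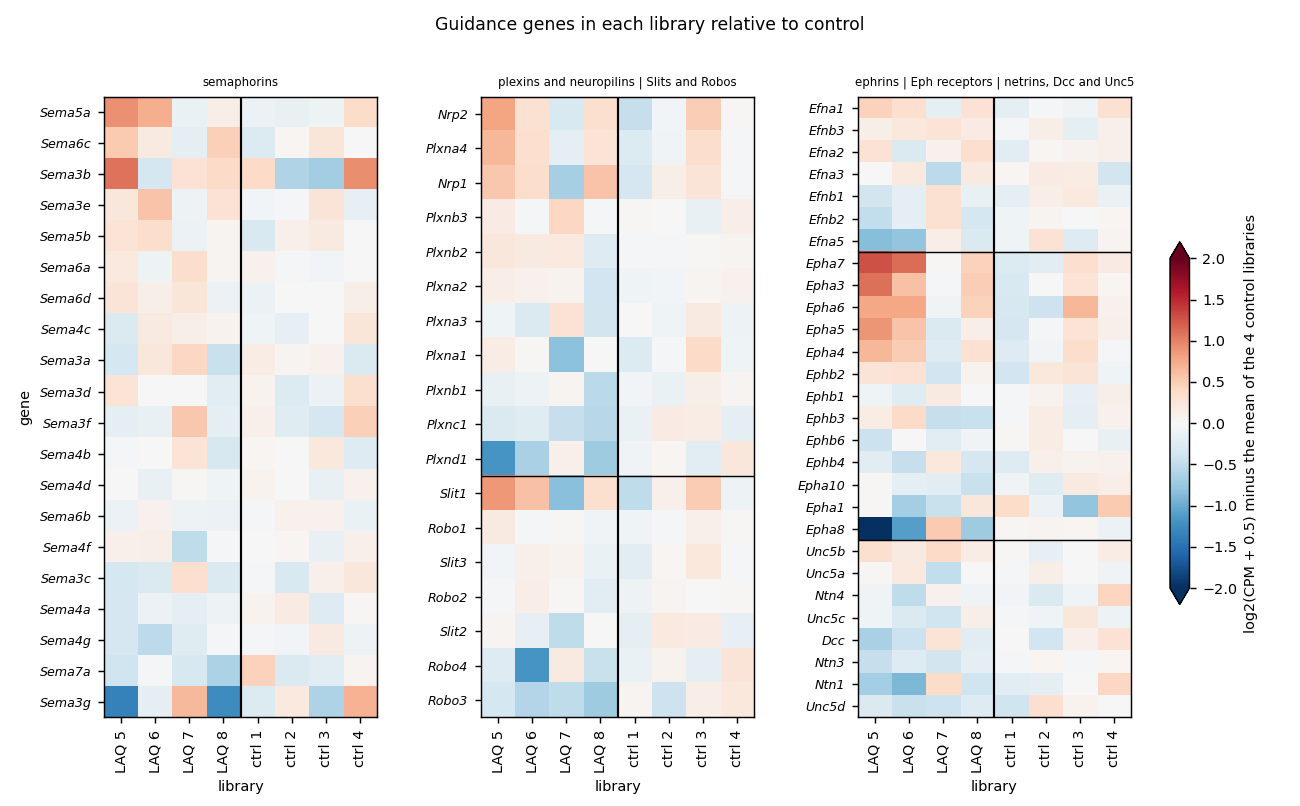
Each tested family member (rows, by family) in each library (columns, LAQ left of control), coloured by log2(CPM + 0.5) minus the mean of the 4 control libraries, with colours limited to -2 and 2. The EphA genes Epha3 to Epha7 are red in LAQ 5 and 6, and Epha8 is dark blue in LAQ 5.

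Without LAQ 7, edgeR called 4 of 68 members and 2.13% of all genes at an adjusted p under 0.05. The 4 were Epha7 (log2 fold change 0.98, adjusted p = 0.0205) and Epha3 (0.77, adjusted p = 0.0465), both higher in LAQ, and Plxnd1 (-0.85, adjusted p = 0.0194) and Epha8 (-1.24, adjusted p = 0.0237), both lower. Over the alternatives, the adjusted p ranged from 0.0105 to 0.589 for Epha7, 0.0465 to 0.638 for Epha3 and 0.0237 to 0.867 for Epha8. In that fit 29 members had an unadjusted edgeR p under 0.05, or 42.6% beside 19.7% of all genes, and 12 had no overlap between the groups, or 17.6% beside 16.6%. Leaving out any 1 of the other 7 libraries gave 0 members past the threshold. With a score of the myelin markers as covariate edgeR called 9 members (2.73% of all genes). Epha4, Epha5, Epha6, Epha7, Sema3e and Slit1 had positive values, and Ntn1, Plxnd1 and Robo4 negative ones. With the cortical score it called 1, Epha7 (1.04% of all genes). The cortical markers summed to 952 CPM in LAQ 7, below the control range of 1464 to 1787 CPM and below every other LAQ library. The cortical fit is therefore not independent of the fit without LAQ 7. The summed myelin markers were higher in LAQ 5, 7 and 8 (14718, 16916 and 15219 CPM) than in every control library (12186 to 13965 CPM). The myelin score is therefore not independent of the group, and its fit cannot separate the 2.

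Of the other genes of the pathway, none was called by edgeR or DESeq2 over all genes with all 8 libraries. Among 51 intracellular effectors, 20 had a positive and 31 a negative log2 fold change, and 2 in each direction had an unadjusted edgeR p under 0.05, or 7.84% of the list beside 11.1% of all genes. Vav3, a guanine nucleotide exchange factor that acts below Eph receptors, averaged 11.3 ± 2.84 CPM in LAQ and 16.2 ± 2.53 CPM in control (edgeR adjusted p = 0.349). Rasa1, a Ras GTPase-activating protein, averaged 70.5 ± 6.53 CPM in LAQ and 59.9 ± 5.53 CPM in control (edgeR adjusted p = 0.371), and the GTPase gene Rac1 averaged 472 ± 20.9 CPM in LAQ and 428 ± 11.1 CPM in control (edgeR adjusted p = 0.444). Among 26 co-receptors and other cues, 1 was higher and 5 were lower at an unadjusted edgeR p under 0.05, together 23.1% of the list beside 11.1% of all genes. L1cam, an adhesion molecule that joins Nrp1 in the response to Sema3a, stood at 56.7, 66.2, 83.3 and 72.5 CPM in LAQ 5 to 8, against 86.6, 95.8, 87.4 and 84.6 CPM in control 1 to 4. The groups did not overlap, with a log2 fold change of -0.35 ± 0.10 (SE; edgeR adjusted p = 0.278). Without LAQ 7, edgeR called L1cam (-0.44, adjusted p = 0.0263) and 3 of the effectors, 2 higher and 1 lower in LAQ, beside 2.13% of all genes. Flrt3, which binds Unc5 receptors, averaged 71.6 ± 9.53 CPM in LAQ and 58.2 ± 7.56 CPM in control (edgeR adjusted p = 0.368). Lingo1, a partner of the Nogo receptor, averaged 152 ± 30.4 CPM in LAQ and 192 ± 13.7 CPM in control (-0.33 ± 0.13, SE; edgeR adjusted p = 0.372), or -0.21 without LAQ 7. Of the 11 myelin-associated inhibitors and receptors found in the table, Omg (214 ± 20.1 CPM in LAQ and 194 ± 0.857 CPM in control) and Rtn4, which encodes Nogo (392 ± 10.2 CPM in LAQ and 365 ± 8.31 CPM in control), lay entirely above control. These 2 are 18.2% of the list, and 2.78% of all genes lay entirely above. Neither reached an unadjusted edgeR p under 0.05. On the log2 scale, Omg differed by 0.14 ± 0.07 (SE; edgeR adjusted p = 0.493) and Rtn4 by 0.10 ± 0.06 (SE; edgeR adjusted p = 0.536). For Omg, LAQ 8 (196 CPM) lay just above control 2 (195 CPM). Mag averaged 562 ± 53.5 CPM in LAQ and 487 ± 37.98 CPM in control (0.21 ± 0.09, SE; edgeR adjusted p = 0.408).

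The 7 members listed as known from vessels had a median log2 fold change of -0.19, with 5 negative and 2 positive (Unc5b and Nrp1). The 5 listed as known from oligodendrocytes had a median of 0.14, with Sema5a, Sema6a, Efnb3 and Plxnb3 positive and Sema4d negative. Both lists were set with earlier results of these data known, and their medians and shares depend on which members were chosen. Without LAQ 7 the median was -0.36 for the vessel list and 0.055 for the oligodendrocyte list. In that fit 6 of the 7 vessel members had an unadjusted edgeR p under 0.05, or 85.7% beside 19.7% of all genes. Of these, 5 were lower in LAQ and 1, Nrp1, was higher. No overlap was found for 57.1% of the list beside 16.6% of all genes, with 3 members lower and 1 higher. With all 8 libraries, 1 vessel member was higher and 1 lower at an unadjusted edgeR p under 0.05. That is 28.6% beside 11.1% of all genes, and the groups overlapped for every vessel member. All 5 endothelial and all 5 mural markers also had a negative log2 fold change with all 8 libraries (medians -0.21 and -0.29). The part of vessel RNA in the values of this list was not tested. With all 8 libraries and no covariate, edgeR called 0 members of either list, and without LAQ 7 it called Plxnd1.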

How the data were processed

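Poly(A) RNA from frozen corpus callosum was sequenced in 8 libraries, grouped by their titles. The authors deposited raw counts for each gene symbol, and their second table, of normalized values, was not used. STAR 2.5.2b, bcl2fastq 2.17.1.14, DESeq2 1.10.1, HTSeq and the build GRCm38.p3 are named in the submitters' processing notes. The annotation release, strand setting and read filters are not given in the sources used here, so reads shared by overlapping genes may be divided or dropped. Of the named members, exons of Efna3, Epha6, Plxna4, Unc5a and Unc5c overlap a gene on the opposite strand and exons of Plxnc1 and Sema4a one on the same strand. Those of Ntn3 overlap genes on both, and these counts are uncertain.

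Genes were kept by filterByExpr (minimum count 10, minimum total 15), scaled by TMM and tested with edgeR's two-sided quasi-likelihood test in R 4.3.3 (limma 3.58.1, edgeR 4.0.16), with Benjamini-Hochberg adjustment over 15771 genes and a threshold of 0.05. The SE is the log2 fold change divided by the square root of F. CPM use TMM-scaled library sizes. The steps were tested on simulated data, where 49.0% of genes changed 1.5-fold and 85.4% of those changed 2-fold were called. Of 169 calls there, 10 were false. These shares hold for the simulated data and may be lower in the real libraries. There the SD of log2 CPM was larger in LAQ than in control for 76.1% of the tested members. Epha7, at a log2 fold change of 0.79, had an edgeR adjusted p of 0.278. A member that was not called may therefore still differ, and not only by a small fold. DESeq2 1.42.0, limma voom, other scalings and filters, 2 marker scores as covariates and leaving out each library were the alternatives. Lengths and positions came from GENCODE M21 (GRCm38), which matched all 70 symbols, and promoters from RefSeq (60 of 70 matched). Figures used matplotlib 3.10.9.

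The named genes were, in each of 6 families, the 2 with most CPM and the 3 of smallest p, plus every member called by edgeR or DESeq2 or without overlap; all other members given with values, and the pathway genes Rtn4 and Omg, were added for their roles or after their values were seen. Members and lists were chosen with earlier results of these data known.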

Additional observations from a re-analysis of the deposited data

Results flagged for a closer look

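Within a group of 4 libraries, 1 library stood far from the other 3 in 4 of 54 groups examined, for the 27 members named by rule. Chance flags about 1 in 20 groups. Plxna2 was at 78.3 CPM in LAQ 8, with the nearest LAQ library at 108 CPM. Sema6b was at 131 CPM in LAQ 6, with the next at 116 CPM. Sema5a was at 57.7 CPM in control 4, with the next control library at 41.2 CPM. Unc5c was at 32.8 CPM in control 3, with the next at 27.1 CPM.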

How the results depend on the processing

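No paired analysis was possible because the LAQ and control libraries share no replicate number. All alternatives were chosen together with the design. Library size alone, the median of ratios, limma voom and a minimum of 1 CPM in 4 libraries gave 0 calls over all genes and moved no count of members by over 1.5 times. Without a filter 25 genes were called, 17 members had an unadjusted p under 0.05 and Plxna2 stood at 0.0058 (log2). DESeq2 called 129 genes and 1 member. With the cortical score, 164 genes, 1 member and 21 members at an unadjusted p under 0.05 were counted, and Efna3 (0.14), Plxna2 (0.060), Robo2 (0.034) and Unc5a (0.13) turned positive. With the myelin score these counts were 430, 9 and 29, and Efna3 (0.37), Plxna2 (0.0030), Robo2 (0.028), Sema6b (0.045) and Unc5a (0.28) turned positive. The cause was not tested. Leaving out 1 library gave 0 to 339 genes called, 0 to 4 members called, 6 to 29 members at an unadjusted p under 0.05, 3 to 12 members without overlap and a median member log2 fold change of -0.044 to 0.0023. The upper counts came without LAQ 7. The log2 fold changes of Efna3 (-0.13 to 0.12), Plxna2 (-0.054 to 0.10), Robo2 (-0.076 to 0.05) and Unc5a (-0.14 to 0.078) crossed 0 in those fits. For these 4 and Sema6b, near 0 in the report, no direction is given. With 4 libraries a group, members of few reads, such as Sema3g at 1.05 to 5.88 CPM, had SEs up to 0.49.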
